A study of Mus musculus with 46 samples.

Results

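The insulin-like growth factor (IGF) system was followed across 12 groups of mouse heart tissue through 10 genes: the ligands Igf1 and Igf2, the receptor Igf1r, the binding proteins Igfbp2, Igfbp3, Igfbp4, Igfbp5, Igfbp6 and Igfbp7, and the adaptor Irs1. Its members were all probe sets that the platform annotation gives to 1 of these symbols alone, which came to 22 probe sets for 10 of the 12393 genes with such a probe set, or 22 of 22626 probe sets on the array once the manufacturer's controls were left out. A gene was read from its probe set with the highest mean log2 intensity among those above the median of their array on at least 3 arrays. With that filter 9 members were tested. Igfbp3, Igfbp6 and Irs1 had 1 probe set each. The second probe sets of Igf2 and Igf1r failed the filter (above the array median on 0 and 2 of 46 arrays), so these genes also rest on 1. Igfbp2, a binding protein with a single probe set, was above the array median on 0 of 46 arrays (mean log2 intensity 3.14), so nothing is said of its change.

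The 46 arrays held total RNA from left ventricles of male mice of the strains C57BL/6J (C57) and MRL/MpJ (MRL), aged 15 to 20 weeks. Both are inbred strains. Hearts came from mice without an operation (day 0), or 1 or 5 days after the left coronary artery was tied off. A biopsy punch separated the infarct with its border from the rest of the left ventricle (noninfarct), and at day 0 "infarct" named the matching anterior and apical region of a healthy ventricle. Each of the 12 groups of strain, day and region had 4 arrays, except the C57 day 0 groups with 3. The labels call the arrays biological replicates. No group had an operation without occlusion, so changes after day 0 follow the whole procedure, and occlusion and surgery cannot be told apart. MRL mice are known for closing ear punch wounds, and the design sets their response to infarction beside that of C57 mice.

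In the circulation and in tissues, IGF-1 and IGF-2 bind the IGF-1 receptor, a tyrosine kinase that signals through insulin receptor substrates such as IRS-1 to phosphoinositide 3-kinase and Akt. Most of the ligand is held by binding proteins, which lengthen its life, deliver it or keep it from the receptor, and proteases release it again. In the heart the pathway is known for cardiomyocyte growth and survival, and macrophages and fibroblasts are known sources of IGF-1 in wounds.

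The starts of 4 members are shown because these genes carried the largest movements: Igf1, Igfbp4 and Igfbp7 at day 5, and Igfbp3 at day 1. Each window runs from 250 bases before to 50 bases after a RefSeq transcript start on GRCm38.p6, in the direction of the gene. For Igf1, Igfbp4 and Igfbp3 that start lies inside the annotated gene span and not at its upstream end. All 10 members had at least 1 window (14 in all). Capitals mark matches, on either strand, to 5 motifs: the CCAAT box by its own letters, the TATA box as TATAAA, the GC box as GGGCGG, the AP-1 site as TGANTCA, and the core of the hypoxia response element as ACGTG.
Igf1, chr10:87860861-87861160, plus strand: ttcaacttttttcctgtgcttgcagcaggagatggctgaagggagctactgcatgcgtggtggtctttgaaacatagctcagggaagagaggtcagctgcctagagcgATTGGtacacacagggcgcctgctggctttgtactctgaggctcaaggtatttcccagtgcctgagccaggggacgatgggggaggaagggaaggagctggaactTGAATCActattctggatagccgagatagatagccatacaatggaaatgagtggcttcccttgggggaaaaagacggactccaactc
Igfbp4, chr11:99040994-99041293, plus strand: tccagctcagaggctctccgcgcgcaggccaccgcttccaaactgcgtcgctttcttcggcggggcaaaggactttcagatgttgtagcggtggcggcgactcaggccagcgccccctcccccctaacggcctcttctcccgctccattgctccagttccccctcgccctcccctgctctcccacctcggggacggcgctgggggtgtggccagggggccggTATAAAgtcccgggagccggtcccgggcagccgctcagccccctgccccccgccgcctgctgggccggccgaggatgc
Igfbp7, chr5:77407996-77408295, minus strand: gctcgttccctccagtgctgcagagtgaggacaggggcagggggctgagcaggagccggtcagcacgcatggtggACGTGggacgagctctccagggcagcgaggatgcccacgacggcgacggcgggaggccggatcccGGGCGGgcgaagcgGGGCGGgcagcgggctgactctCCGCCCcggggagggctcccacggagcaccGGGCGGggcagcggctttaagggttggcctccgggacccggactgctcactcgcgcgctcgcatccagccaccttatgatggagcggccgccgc
Igfbp3, chr11:7213874-7214173, minus strand: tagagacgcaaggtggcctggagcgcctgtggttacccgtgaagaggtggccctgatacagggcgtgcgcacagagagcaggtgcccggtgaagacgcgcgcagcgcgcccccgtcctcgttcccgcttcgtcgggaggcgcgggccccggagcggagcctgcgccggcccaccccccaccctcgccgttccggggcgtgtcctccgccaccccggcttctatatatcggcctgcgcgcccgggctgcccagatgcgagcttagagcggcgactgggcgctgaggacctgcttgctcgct
The windows of Igf1, Igfbp4 and Igfbp7 shared none of these motifs. The Igf1 window held a CCAAT box and an AP-1 site, which were in 37.4% and 7.81% of 32851 windows of this length. Igfbp4 had a TATA box that began 28 bases before the start (13.6% of windows). Igfbp7 had 4 GC boxes (at least 1 in 35.7% of windows) and a hypoxia response core (19.6%), and the Igfbp3 window held none of the 5 motifs. The Igfbp3, Igfbp4 and Igfbp7 windows were 71.7%, 71.3% and 73.3% G and C, against 52.3% for Igf1 and a median of 52.7% over all windows. These matches describe letters and not bound sites.

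The number of arrays limits the precision. After the authors' processing, array medians ranged from 4.22 to 4.48 on the log2 scale. All 12 cardiomyocyte markers were tested, with summed intensities of 79941 to 291487 over the arrays. Along the first principal component, which held 52.7% of the variance, several day 5 libraries lay away from their groups. C57 noninfarct replicate 3 (99.1, the others -30.2 to 35.3) lay with infarct tissue, MRL infarct replicate 3 (11, the others 107.9 to 115.7) lay with noninfarct tissue, and C57 infarct replicate 1 (40.5, the others 98.8 to 117.2) lay between. The first 2 are the libraries left out wherever a value without the libraries that stood apart is given. C57 noninfarct replicate 1 (-30.2) also lay away from the rest of its group (21.8 to 99.1). It lay among the C57 noninfarct arrays of day 1 (-41 to -21.4). Without it the C57 noninfarct day 5 changes of Igf1r, Igfbp3 and Irs1 passed the threshold. Markers of atrial muscle (Sln, Myl7 and Myl4) set the labelled regions apart, with summed intensities of 37 to 98 on 22 infarct arrays and 217 to 2092 on 21 noninfarct arrays. The other 3 arrays went against their region labels: the library labelled C57 noninfarct replicate 3 at day 5 had 44, that labelled MRL noninfarct replicate 4 at day 5 had 59, and that labelled MRL infarct replicate 3 at day 5 had 2164. The first and the third of these are the libraries that stood apart. MRL noninfarct replicate 4 lay with its group on the first principal component (22.2, the others 20.5 to 42.8), and leaving it out ended 1 member call, the day 1 to day 5 rise of Igfbp4 in MRL noninfarct tissue (0.93, adjusted p = 0.06). The difference between the 3′ and 5′ Gapdh control probe sets, a sign of RNA integrity, was highest in C57 day 5 infarct replicate 2 (0.73), C57 day 1 infarct replicate 4 (0.41) and MRL day 1 infarct replicate 3 (0.38).

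**Figure D1:**
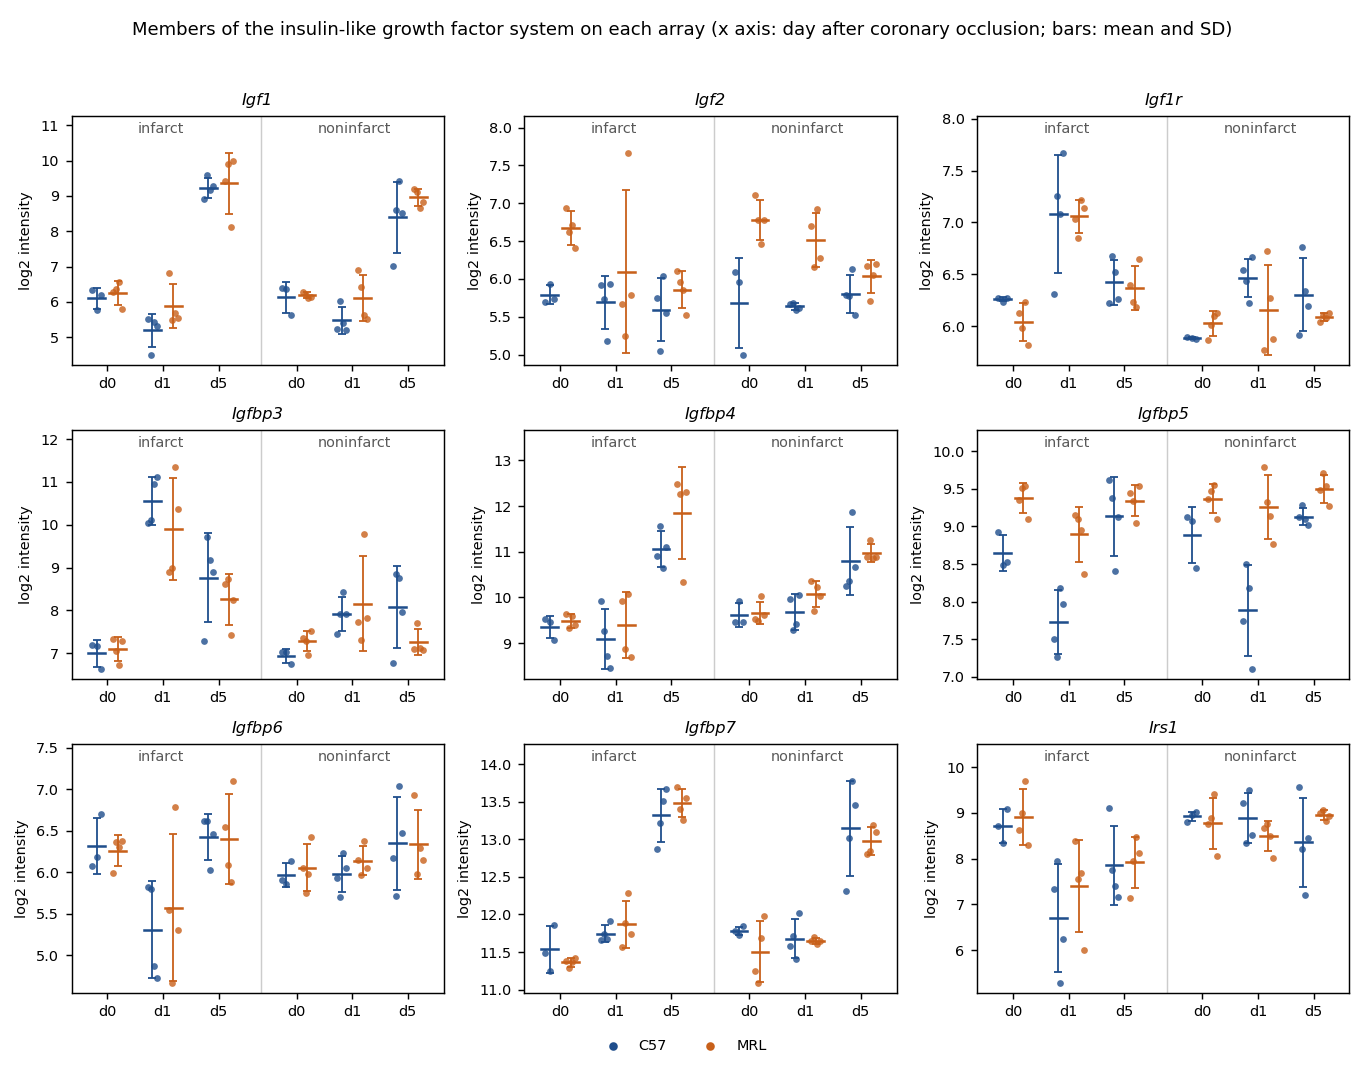
Log2 intensity of each of the 9 tested members (y axis) by day after coronary occlusion (x axis), with 1 point per array, blue for C57 and orange for MRL, and horizontal lines with bars for the mean and SD of a group. Igf1, Igfbp4 and Igfbp7 stand high at day 5 in both regions, Igfbp3 and Igf1r peak in infarct tissue at day 1, and Irs1 has its lowest points there.

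Igf1, the main growth factor of the system, rose late and in both regions. In C57 infarct tissue its log2 intensities were 6.35, 5.78 and 6.20 at day 0, 5.53, 4.51, 5.43 and 5.31 at day 1, and 8.91, 9.58, 9.16 and 9.28 at day 5. The MRL infarct values were 6.28, 6.38, 6.56 and 5.79 at day 0, 6.81, 5.48, 5.68 and 5.56 at day 1, and 9.41, 9.91, 8.11 and 9.99 at day 5. Every day 5 array lay above every earlier array of its strain and region, in noninfarct tissue too. From day 0 to day 5 Igf1 rose 8.73-fold in C57 infarct tissue (log2 change 3.13 ± 0.38 SE, limma, adjusted p = 4.8e-06) and 8.59-fold in MRL infarct tissue (3.10 ± 0.36, adjusted p = 1.5e-06). In noninfarct tissue it rose 4.80-fold in C57 (2.26 ± 0.40, adjusted p = 0.0012) and 6.83-fold in MRL hearts (2.77 ± 0.37, adjusted p = 3.2e-05). Its other 2 probe sets rose in the same 4 comparisons, by 1.31 to 3.43 on the log2 scale. The dimmer of these was above the array median on 13 arrays, all from day 5, so it passed the filter through the day on which it was high. At day 0 and day 1 its log2 intensities were 2.37 to 3.06, below every array median (4.22 or more). The value of 3.43 comes from this probe set, and no size of the Igf1 rise is read from it.

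Igf1 was not called at day 1 in either strain. The C57 infarct arrays at day 1 all lay below those of day 0 (log2 change -0.91 ± 0.38, adjusted p = 0.11), and without the libraries that stood apart this difference passed the threshold (adjusted p = 0.038). The MRL value was -0.37 (adjusted p = 0.48). The step from day 1 to day 5 in infarct tissue was therefore wider than that from day 0, at 16.4-fold in C57 and 11.1-fold in MRL mice (adjusted p = 7.2e-08 and 6.1e-07). These steps share the day 5 arrays with the comparisons against day 0.

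Igf2, the ligand best known from fetal growth, differed between the strains in unoperated hearts. In unoperated noninfarct tissue its log2 intensities were 6.10, 5.96 and 5.00 in C57 and 7.11, 6.77, 6.47 and 6.78 in MRL hearts, with no overlap. It was 2.14-fold higher in MRL (1.10 ± 0.23, adjusted p = 0.012), where 1.01% of 7322 genes were called higher in MRL. This call ended without C57 replicate 3 (0.75, adjusted p = 0.12), without MRL replicate 1 (0.99, adjusted p = 0.05) and with all arrays in the fit (adjusted p = 0.089). In the matching infarct region the arrays did not overlap either (0.88 ± 0.38), but the difference did not pass (adjusted p = 0.64; 0 members called, against 0.762% of 7608 genes higher and 0.394% lower, and 2 members at an unadjusted p under 0.05).

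In MRL noninfarct tissue Igf2 then fell 1.68-fold by day 5, to 6.17, 5.71, 6.05 and 6.20 (log2 change -0.75 ± 0.21, adjusted p = 0.016). That call ended without day 5 replicate 2 (adjusted p = 0.068), without day 0 replicate 1 (0.059) and with all arrays in the fit (0.083). In the infarct region of MRL hearts all 4 day 5 arrays lay below those of day 0 without a call (-0.81, adjusted p = 0.064), and the fall passed after quantile normalization (-0.92, adjusted p = 0.035), after centring (-0.88, 0.048) and with all arrays in the fit (0.021). At day 1 one MRL infarct array, replicate 3, stood at 7.67 against 5.25 to 5.79 in the others, and it had a raised Gapdh difference (0.38). Without it Igf2 was lower than at day 0 (-1.11, adjusted p = 0.0029), and with it the change was -0.58 (adjusted p = 0.24). C57 values stayed between 5.00 and 6.13 over all days and both regions, and no C57 change in Igf2 was called.

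Igf1r, the receptor kinase, rose in infarct tissue at day 1. Its log2 intensities in MRL infarct tissue were 6.13, 5.99, 6.24 and 5.82 at day 0 and 7.03, 6.85, 7.22 and 7.14 at day 1, a 2.02-fold rise (1.02 ± 0.21, adjusted p = 0.0023) with no overlap. The C57 infarct values were 6.27, 6.24 and 6.27 at day 0 and 6.31, 7.26, 7.08 and 7.67 at day 1, so 1 of the 4 arrays stayed close to the unoperated level. The C57 rise of 1.77-fold (0.82 ± 0.23, adjusted p = 0.018) ended without day 1 replicate 4 (0.62, adjusted p = 0.067), the array with a raised Gapdh difference, and without any 1 of the 3 day 0 arrays (adjusted p = 0.053, 0.064 and 0.055). From day 1 to day 5 the infarct tissue changes of Igf1r were -0.66 for C57 (adjusted p = 0.022) and -0.69 for MRL mice (adjusted p = 0.02). In noninfarct tissue no Igf1r change was called. The C57 noninfarct values were 5.89, 5.89 and 5.88 at day 0 and 6.54, 6.44, 6.22 and 6.66 at day 1, which did not overlap (0.58, adjusted p = 0.1), and the day 5 change of 0.42 (adjusted p = 0.12) passed without day 5 replicate 1 (0.55, adjusted p = 0.032). In MRL noninfarct tissue the changes were 0.13 and 0.06 (adjusted p = 0.86 and 0.82). Both infarct falls ended when single arrays were left out. The C57 fall ended without day 5 replicate 4 or day 1 replicate 2 or 4 (adjusted p = 0.064, 0.057 and 0.09). The MRL fall ended without day 5 replicate 2 or day 1 replicate 3 (0.055 and 0.051), the latter with a raised Gapdh difference (0.38).

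Irs1, the adaptor that couples the receptor to phosphoinositide 3-kinase, had its lowest values in infarct tissue at day 1. In C57 infarct tissue its log2 intensities were 8.72, 8.34 and 9.09 at day 0 and 7.34, 7.94, 5.29 and 6.24 at day 1, without overlap. This 4.04-fold fall (-2.02 ± 0.59, adjusted p = 0.023) ended without day 1 replicate 3 or 4 (adjusted p = 0.088 and 0.061) or day 0 replicate 1 or 3 (0.065 and 0.094). The MRL infarct values were 8.62, 9.01, 9.70 and 8.29 at day 0 and 8.38, 7.55, 7.69 and 6.00 at day 1, which overlapped. The MRL change of -1.50 ± 0.54 missed the threshold (adjusted p = 0.052) and passed it without day 1 replicate 1 (-1.82, adjusted p = 0.026), with all arrays in the fit (adjusted p = 0.016) and in 5 further alternatives (0.044 to 0.05). At day 5 the values were -0.87 (adjusted p = 0.24) in C57 and -0.99 (0.14) in MRL infarct tissue. In C57 noninfarct tissue Irs1 was called lower at day 5 only when replicate 1 was left out (-0.97, adjusted p = 0.028). All of these values come from 1 probe set.

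**Figure D2:**
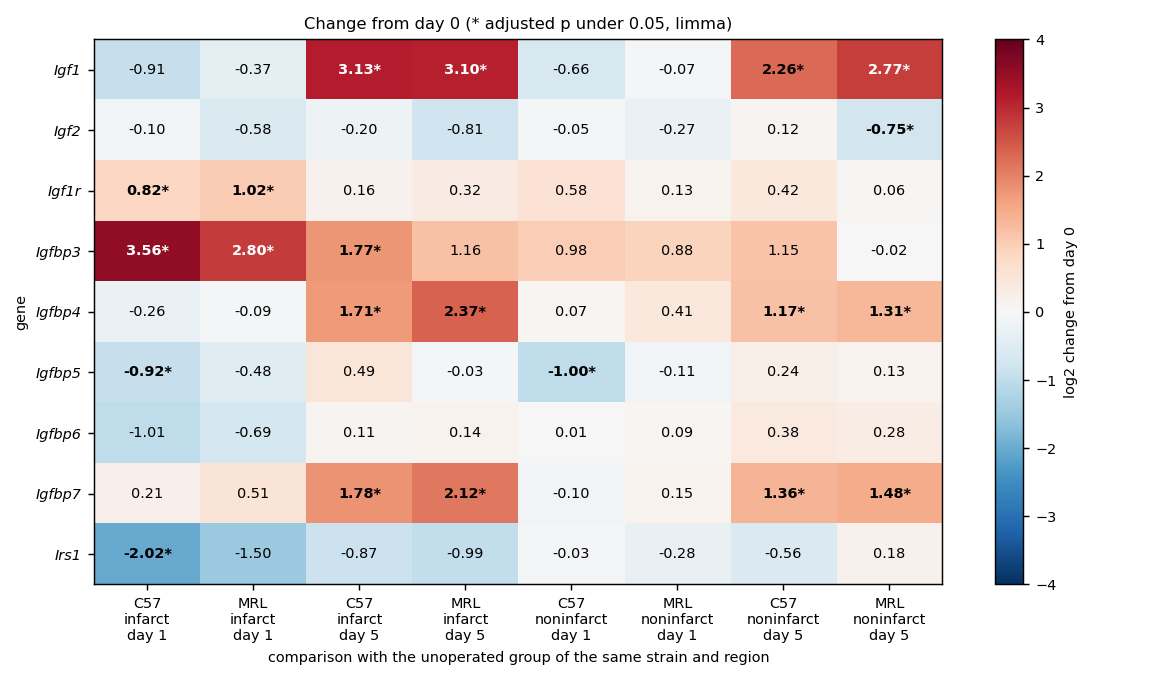
Log2 change of each tested member (rows) from day 0 of the same strain and region (columns), printed in each cell and coloured from blue (lower) to red (higher). Asterisks and bold type mark adjusted p under 0.05, and the day 5 columns share Igf1, Igfbp4 and Igfbp7 as called rises.

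Igfbp3, the most abundant IGF carrier of the blood, had the largest day 1 rise among the members. In C57 infarct tissue its log2 intensities were 7.19, 7.17 and 6.64 at day 0, 10.04, 10.12, 10.96 and 11.11 at day 1, and 7.29, 9.71, 9.19 and 8.89 at day 5. The MRL infarct values were 7.33, 7.05, 6.74 and 7.29 at day 0, 8.89, 8.98, 11.36 and 10.37 at day 1, and 8.62, 8.74, 7.43 and 8.24 at day 5. All day 1 arrays lay above all day 0 arrays in both strains, and the MRL day 1 arrays were spread over more than 2 log2 units. The rise was 11.8-fold in C57 (3.56 ± 0.54, adjusted p = 0.00013) and 6.96-fold in MRL tissue (2.80 ± 0.50, adjusted p = 0.00062). The difference between these strain changes was -0.76 ± 0.73 (unadjusted p = 0.311, adjusted p = 1).

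From day 1 to day 5 the infarct tissue changes of Igfbp3 were -1.79 for C57 (adjusted p = 0.0098) and -1.64 for MRL mice (adjusted p = 0.019). The MRL fall ended without day 1 replicate 3 or 4 (adjusted p = 0.078 and 0.056), the first of which had a raised Gapdh difference (0.38). C57 infarct tissue was still 3.41-fold above day 0 at day 5 (1.77 ± 0.54, adjusted p = 0.012), a call that ended without day 0 replicate 3 (adjusted p = 0.052). The MRL value at day 5 was 1.16 (adjusted p = 0.061), and it passed without MRL day 5 replicate 3 (1.43, adjusted p = 0.025) or with all arrays in the fit (0.042). In noninfarct tissue no Igfbp3 change was called, with values of 0.98 and 0.88 at day 1 (adjusted p = 0.27 and 0.41) and 1.15 and -0.02 at day 5 (0.081 and 0.97) for C57 and MRL. Without C57 noninfarct replicate 1 the C57 day 5 value was 1.58 (adjusted p = 0.0064).

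Igfbp4, a binding protein that is cleaved by the protease PAPP-A, rose at day 5. Its log2 intensities in MRL infarct tissue were 9.63, 9.32, 9.60 and 9.39 at day 0 and 12.48, 12.27, 10.34 and 12.31 at day 5. The C57 infarct values were 9.53, 9.46 and 9.08 at day 0 and 10.92, 11.57, 10.66 and 11.12 at day 5. No day 5 array fell to the day 0 range in either strain, and the low MRL array at day 5 was replicate 3, which lay with noninfarct tissue over all genes. Igfbp4 rose 5.15-fold in MRL (2.37 ± 0.41, adjusted p = 0.00014) and 3.27-fold in C57 infarct tissue (1.71 ± 0.44, adjusted p = 0.0043). In noninfarct tissue it rose 2.48-fold in MRL (1.31 ± 0.27, adjusted p = 0.0018) and 2.25-fold in C57 hearts (1.17 ± 0.29, adjusted p = 0.011). Its other 5 probe sets all had higher means at day 5 than at day 0 in both regions of both strains. All were called higher in both regions of MRL hearts, 4 in C57 infarct tissue and 3 in C57 noninfarct tissue. At day 1 no Igfbp4 change was called, with values between -0.26 and 0.41.

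Igfbp7, a secreted relative with low affinity for IGFs that is found in vessel walls and matrix, had the smallest standard errors of the day 5 rises in infarct tissue. Its log2 intensities in C57 infarct tissue were 11.49, 11.25 and 11.87 at day 0 and 12.88, 13.21, 13.51 and 13.67 at day 5. Those of MRL infarct tissue were 11.39, 11.28, 11.36 and 11.42 at day 0 and 13.70, 13.40, 13.26 and 13.56 at day 5. The day 5 arrays stood apart from the day 0 arrays by about 1 log2 unit or more in each strain. The rise was 3.44-fold in C57 (1.78 ± 0.20, adjusted p = 1.8e-06) and 4.33-fold in MRL infarct tissue (2.12 ± 0.19, adjusted p = 5.7e-08), and 2.57-fold and 2.78-fold in noninfarct tissue (adjusted p = 0.0018 and 0.00018). A second probe set for Igfbp7 rose in 3 of these 4 comparisons and gave 0.95 without a call in C57 noninfarct tissue. At day 1 the MRL infarct arrays all lay above day 0 by a small step (0.51 ± 0.19, adjusted p = 0.056), which passed without replicate 1 (0.61, adjusted p = 0.031), after quantile normalization (0.54, 0.046), with 32 added before log2 (0.50, 0.038) and without the libraries that stood apart (0.047).

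Igfbp5, a binding protein that also attaches to extracellular matrix, fell at day 1 in C57 hearts and differed between the strains. In C57 infarct tissue its log2 intensities were 8.92, 8.48 and 8.53 at day 0 and 7.50, 7.26, 8.18 and 7.97 at day 1, without overlap. In C57 noninfarct tissue they were 9.13, 9.08 and 8.45 at day 0 and 7.74, 8.50, 8.18 and 7.11 at day 1, with an overlap of 1 array. The falls were 1.89-fold (-0.92 ± 0.27, adjusted p = 0.023) and 2.00-fold (SE 0.26 on the log2 scale, adjusted p = 0.037). In MRL hearts the day 1 values were -0.48 in infarct (adjusted p = 0.17) and -0.11 in noninfarct tissue (adjusted p = 0.92).

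At day 1 Igfbp5 was higher in MRL than in C57 hearts in both regions. It was 2.25-fold higher in infarct tissue (1.17 ± 0.25, adjusted p = 0.021), with MRL arrays at 9.15, 9.10, 8.96 and 8.36. In noninfarct tissue it was 2.60-fold higher (1.38 ± 0.24, adjusted p = 0.0019), with MRL arrays at 9.80, 9.33, 9.14 and 8.77, and no array of one strain reached the range of the other in either region. Unoperated hearts gave 0.73 (adjusted p = 0.4) and 0.49 (adjusted p = 0.7), and day 5 hearts 0.21 and 0.37 (adjusted p = 1 and 0.64), all higher in MRL and none called. From day 1 to day 5 Igfbp5 rose in C57 tissue, by 1.41 in infarct (adjusted p = 0.00025) and 1.25 in noninfarct tissue (adjusted p = 0.0014). The difference between the strains in the change from day 0 to day 1 was 0.44 ± 0.37 in infarct and 0.89 ± 0.36 in noninfarct tissue (unadjusted p = 0.246 and 0.0219, adjusted p = 1 for both).

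The Igfbp5 calls rest on 1 of its 2 probe sets. The second, dimmer probe set gave strain differences of 0.23 in infarct and 0.27 in noninfarct tissue at day 1 (adjusted p = 0.95 and 0.79) and was called in 0 of the 28 comparisons. With the mean of both probe sets the infarct strain difference was 0.70 (adjusted p = 0.15) and the C57 noninfarct fall -0.61 (adjusted p = 0.16), while the noninfarct strain difference was still called. The infarct strain difference also ended without MRL replicate 1 or 2 or C57 replicate 1 or 2 (adjusted p = 0.068 to 0.084). The C57 infarct fall ended without day 1 replicate 2 (0.061) or day 0 replicate 1 (0.11) or 3 (0.052). The noninfarct fall ended without day 1 replicate 1 or 4 or day 0 replicate 1 or 2 (0.087 to 0.17), without the filter (0.068) and after centring (0.05).

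**Figure D3:**
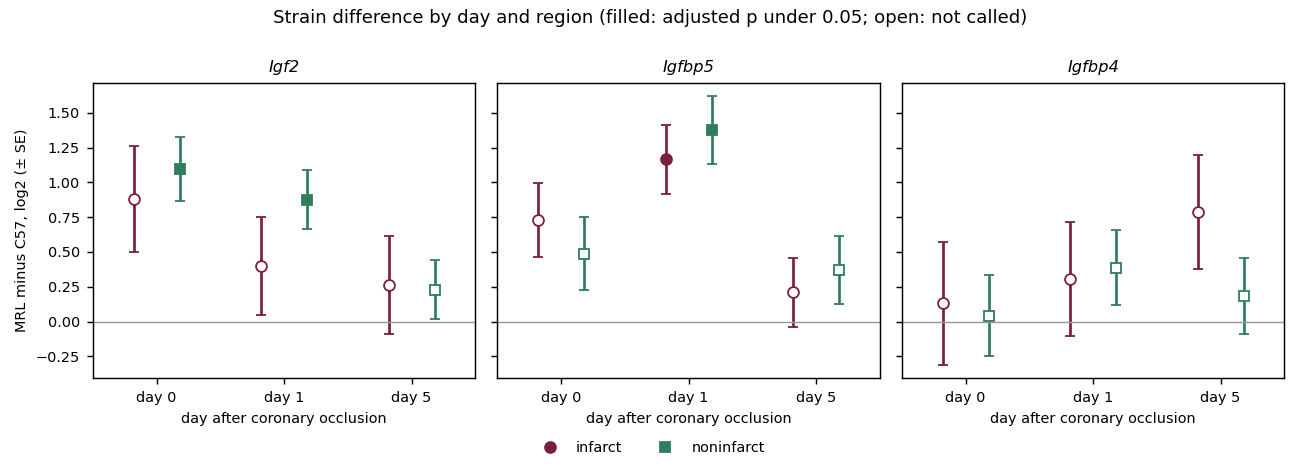
MRL minus C57 difference in log2 intensity (y axis, with standard errors) at each day (x axis) for Igf2, Igfbp5 and Igfbp4, circles for infarct and squares for noninfarct tissue, filled where adjusted p was under 0.05. Igf2 in noninfarct tissue at days 0 and 1 and Igfbp5 in both regions at day 1 are filled, and no Igfbp4 difference is.

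Igfbp6, a binding protein that prefers IGF-2, was called in 1 comparison, a rise from day 1 to day 5 in C57 infarct tissue (1.12 ± 0.36, adjusted p = 0.02). Its log2 intensities there were 6.07, 6.19 and 6.70 at day 0, 5.82, 5.80, 4.87 and 4.73 at day 1, and 6.61, 6.61, 6.02 and 6.46 at day 5. All day 1 arrays lay below all others, although the fall from day 0 did not pass (-1.01, adjusted p = 0.077) and passed without day 1 replicate 1 (0.049) or with all arrays in the fit (0.023). The called rise ended without day 5 replicate 2 or day 1 replicate 3 or 4 (adjusted p = 0.052 to 0.068). The same step in MRL infarct tissue was 0.83 (adjusted p = 0.082), and it passed with all arrays in the fit (0.031), without day 5 replicate 3 (1.00, adjusted p = 0.038) and without day 1 replicate 3 (1.23, adjusted p = 0.0087). In MRL infarct tissue replicate 3 at day 1, which had a raised Gapdh difference (0.38), was the high array (6.78, the others 4.67 to 5.54). Without it the change from day 0 was -1.09 (adjusted p = 0.019), against -0.69 (0.17) with it.

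Counted over the members, C57 infarct tissue at day 1 had 2 rises (Igf1r and Igfbp3) and 2 falls (Igfbp5 and Irs1) among the 9 tested, where 9.48% of 7608 genes rose and 7.07% fell. MRL infarct tissue had the same 2 rises and 0 falls, where 10.1% rose and 12.4% fell. At day 5 C57 infarct tissue had 4 rises (24.4% of genes rose and 19.6% fell) and MRL infarct tissue 3 (24.4% and 24.1%). The members' median change was 0.49 in C57 and 0.32 in MRL infarct tissue at day 5, and that of all genes 0.03 and -0.03. At day 1 it was -0.26 and -0.37, against -0.01 and -0.03 for all genes.

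In noninfarct tissue at day 1 the counts were 1 fall in C57 (2.76% of 7322 genes rose and 1.31% fell) and 0 calls in MRL hearts (0.833% and 0.205%), where 0 members had an unadjusted p under 0.05 either. At day 5 there were 3 rises in C57 (12.3% and 9.85%) and 3 rises with 1 fall in MRL hearts (16.4% and 8.39%). From day 1 to day 5 the infarct counts were 5 rises and 2 falls in C57 (20.5% and 14.8%) and 3 rises and 2 falls in MRL (17.8% and 13.0%). Noninfarct tissue had 4 rises in C57 (12.6% and 10.9%) and 3 in MRL hearts (10.3% and 2.57%). The MRL noninfarct step of Igfbp4 was the least stable of these (0.90, adjusted p = 0.034). It ended without the filter (0.053), with all arrays in the fit (0.12), and when any 1 of the 4 day 5 arrays or of day 1 replicates 2, 3 and 4 was left out (0.053 to 0.12).

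Between strains, Igf2 was also higher in MRL noninfarct tissue at day 1 (0.88 ± 0.21, adjusted p = 0.027), which with Igfbp5 made 2 members where 1.48% of genes were higher in MRL and 1.09% lower. This Igf2 call ended without the filter (0.051), with all arrays in the fit (0.15) and without MRL replicate 1 or 3 or C57 replicate 1, 3 or 4 (0.055 to 0.093). At day 0 Igf2 was 1 of 9 in noninfarct tissue (0.847% lower). In infarct tissue at day 1 Igfbp5 was 1 of 9 (0.394% higher and 0.526% lower). At day 5 there were 0 calls in infarct (0.223% and 0.513%) and 0 in noninfarct tissue (0.929% and 0.355%), with 0 members at an unadjusted p under 0.05 in both. Without MRL infarct replicate 3, Igfbp4 was higher in MRL infarct tissue at day 5 (1.29, adjusted p = 0.044), against 0.79 (adjusted p = 1) with it.

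The test of whether the strains changed differently from day 0 called 0 members in all 4 cases. The backgrounds were 0.00% higher and 0.0263% lower for infarct tissue at day 1, and 0.0394% and 0.131% at day 5. For noninfarct tissue they were 0.0137% and 0.00% on both days. At an unadjusted p under 0.05 from limma the counts were 0, 0, 1 and 1, in that order. Those were Igfbp5 at day 1 and Igf2 at day 5 (-0.87 ± 0.32, limma, unadjusted p = 0.0124). The rise of Igf1 in infarct tissue at day 5 differed between strains by -0.02 ± 0.52.

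Between regions at day 1, 2 members were called higher and 1 lower in C57 infarct tissue, where 4.10% of 7760 genes were higher and 3.45% lower, and 2 were called higher in MRL infarct tissue (4.57% and 5.13%). Igfbp3 was 6.22-fold higher in infarct than in noninfarct tissue in C57 (2.64 ± 0.48, adjusted p = 0.00069) and 3.34-fold higher in MRL hearts (1.74 ± 0.48, adjusted p = 0.023). For Igf1r the infarct tissue was higher by 0.61 ± 0.20 (C57, adjusted p = 0.046) and 0.90 ± 0.20 (MRL, adjusted p = 0.0049). Irs1 was 4.56-fold lower in C57 infarct tissue (-2.19 ± 0.48, adjusted p = 0.0041), its noninfarct arrays standing at 9.21, 8.35, 9.49 and 8.52, above all 4 infarct arrays. The MRL value for Irs1 was -1.08 (adjusted p = 0.14). The C57 Igf1r call ended without the filter (0.063), after centring (0.1), with C57 arrays alone (0.14) and without infarct replicates 2, 3 or 4 or noninfarct replicates 1, 2 or 3 (0.069 to 0.25). The MRL Igfbp3 call ended without infarct replicate 3 or 4 or noninfarct replicate 1, 2 or 4 (0.064 to 0.09).

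Cell markers also differed between the regions at day 1. Of the 3 atrial markers 2 were lower in C57 and 3 in MRL infarct tissue, with median differences of -3.42 and -3.79, and at day 0 the medians were already -3.32 (0 of 3 called) and -4.46 (3 of 3 called). The neutrophil sum was 4389 to 6380 in infarct against 1404 to 2494 in noninfarct tissue of C57 hearts, and 1506 to 3519 against 401 to 956 in MRL hearts. Of all genes 4.10% were higher and 3.45% lower in C57 infarct tissue at day 1, and 4.57% and 5.13% in MRL. Of 10 endothelial markers 4 were higher in C57 infarct tissue and 1 in MRL. The counts were 2 and 4 of 15 macrophage markers, and of 12 cardiomyocyte markers 0 were called in either. Their part in the region differences of Igfbp3, Igf1r and Irs1 was not tested.

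At day 0 the regions gave 0 calls in C57 (0.00% in both directions) and 0 in MRL hearts (0.0129% and 0.0387%), with 0 members at an unadjusted p under 0.05. At day 5 there were also 0 calls in C57 (5.57% and 3.78%) and in MRL hearts (5.34% and 10.3%), with 1 and 4 members at an unadjusted p under 0.05. With the replicate number as a block, which takes same-numbered arrays of a strain and day as 1 heart, Igfbp3 was called higher in infarct tissue of C57 (0.68, adjusted p = 0.021), and Igfbp3 and Igfbp7 in that of MRL hearts (1.00 and 0.50, adjusted p = 0.0028 and 0.035). That fit took its spread from all 46 arrays, and the numbers may not pair hearts. Deviations of same-numbered C57 arrays at day 1 correlated at r of -0.462 to 0.154. Without the libraries that stood apart Igf1 was higher in C57 infarct tissue (1.18 ± 0.34, adjusted p = 0.0065, against 0.84 and 0.13 with them). In MRL hearts Igfbp4 (1.38, adjusted p = 0.00022), Igfbp3 (1.28, 0.048) and Igfbp7 (0.57, 0.034) were then higher in infarct tissue, against 0.88, 1.00 and 0.50 (0.093, 0.16 and 0.11) with them. Igfbp7 was also called with MRL arrays alone (adjusted p = 0.047).

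Markers of other cells moved with the day 5 rises. In infarct tissue at day 5, 11 of 12 fibroblast markers rose in each strain, and 14 of 15 monocyte and macrophage markers rose in each. Of the cardiomyocyte markers, 10 of 12 fell in C57 and 11 of 12 in MRL. Of all genes 24.4% rose in each strain, and 19.6% fell in C57 and 24.1% in MRL. The summed intensity of the fibroblast markers went from 7631 to 9188 at day 0 to 76877 to 100126 at day 5 in C57, and from 9266 to 11366 to 45875 to 103073 in MRL infarct tissue. The macrophage sum went from 1187 to 1292 to 9021 to 21892 in C57 and from 757 to 933 to 3644 to 23845 in MRL. In noninfarct tissue, where 12.3% of all genes rose in C57 and 16.4% in MRL, 9 of 12 fibroblast markers rose in each strain. These markers had day 5 sums of 26207 to 95917 in C57 and 59397 to 65682 in MRL. Their part in the rises of Igf1, Igfbp4 and Igfbp7 was not tested. In whole tissue, more cells of a type and more RNA per cell cannot be told apart.

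In C57 noninfarct and MRL infarct tissue at day 5 the lowest and the highest array for Igf1 were also the lowest and the highest for the mean of the fibroblast markers. MRL infarct replicate 3, the lowest of its group for Igf1 (8.11), had a mean fibroblast marker level of 9.80 against 10.96 to 11.21 in the others. C57 noninfarct replicate 1 (Igf1 at 7.03) stood at 9.19 and replicate 3 (Igf1 at 9.42) at 10.82, the lowest and the highest of that group. In C57 infarct tissue the highest Igf1 array was replicate 2 (9.58) and the highest fibroblast mean that of replicate 4 (10.83). In MRL noninfarct tissue the lowest were replicate 3 for Igf1 (8.67) and replicate 4 for the fibroblast mean (10.34). For the mean of the macrophage markers, the lowest Igf1 array was also the lowest in each day 5 group. These macrophage means were 7.98 and 6.40 in C57 and MRL infarct tissue, and 5.66 and 7.00 in noninfarct tissue. The highest Igf1 and macrophage arrays were the same in C57 noninfarct tissue alone. All 16 day 5 arrays had fibroblast means of 9.19 or more, and the 30 earlier arrays lay between 7.58 and 8.60.

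**Figure D4:**
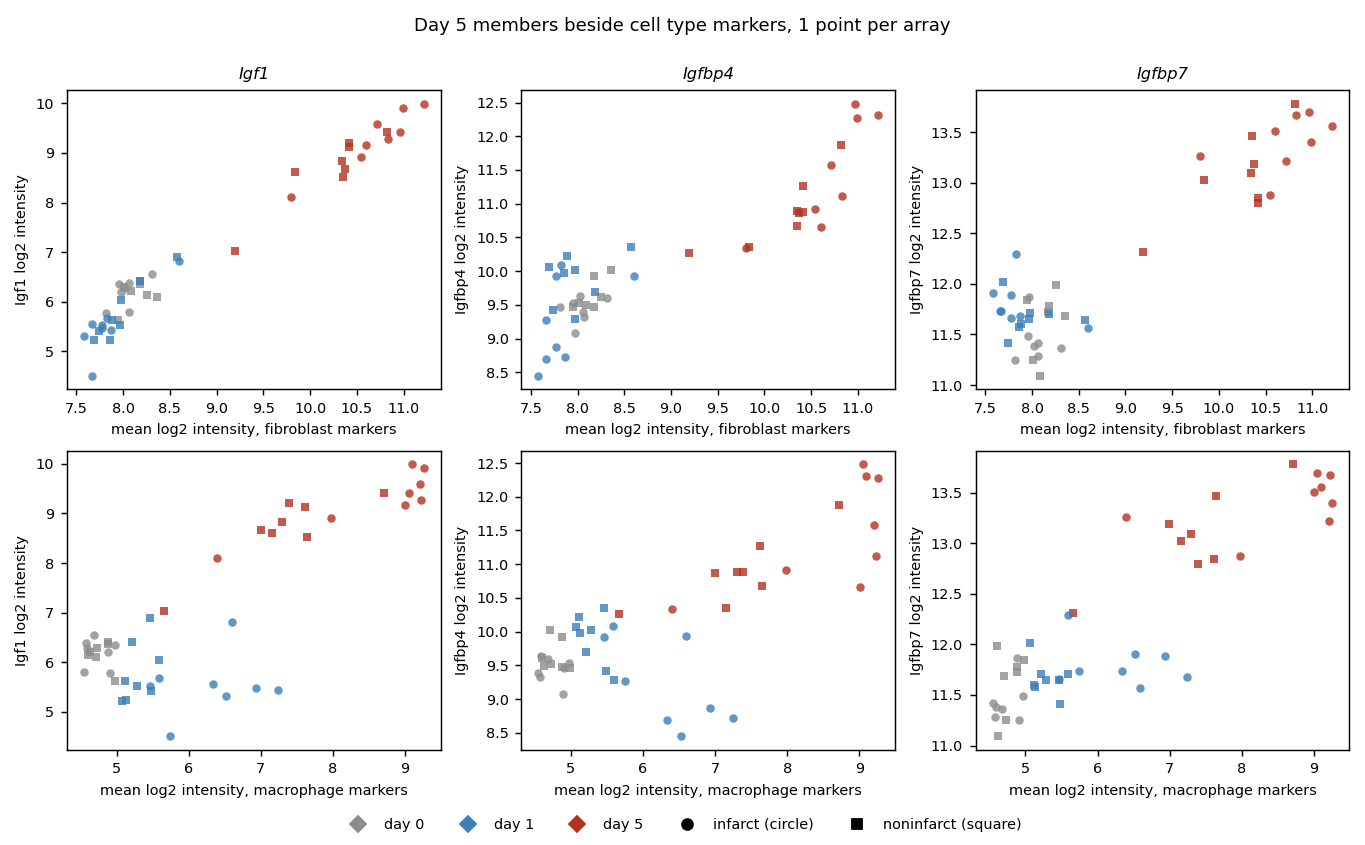
Log2 intensity of Igf1, Igfbp4 and Igfbp7 (columns, y axis) against the mean log2 intensity of fibroblast markers (top row, x axis) and macrophage markers (bottom row, x axis), 1 point per array, coloured by day, with circles for infarct and squares for noninfarct tissue. Day 5 arrays stand at fibroblast means of 9.19 or more and at macrophage means of 5.66 to 9.26. Day 1 infarct arrays have macrophage means of 5.46 to 7.24, with Igf1 at or below 6.81. The part of either marker list was not tested.

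Neutrophil markers were high at day 1. The 3 that passed the filter, of 9 listed, were above the array median on 0 of 14 day 0 arrays and on all 16 day 1 arrays, so they passed through the days on which they were high and no count of calls is read from them. Their summed intensity in infarct tissue went from 24 to 28 at day 0 to 4389 to 6380 at day 1 in C57, and from 25 to 27 to 1506 to 3519 in MRL mice. Among fibroblast markers the day 1 infarct calls were 2 rises of 12 for C57, and 1 rise with 2 falls for MRL. Of all genes 9.48% rose and 7.07% fell there in C57, and 10.1% and 12.4% in MRL. The 15 macrophage markers had 3 rises (C57) and 7 rises (MRL) in infarct tissue at day 1, with sums of 1075 to 4393 and 1399 to 3576 against 1187 to 1292 and 757 to 933 at day 0. For cardiomyocyte markers 0 of 12 were called at day 1, with summed intensities of 174110 to 259689 in C57 infarct tissue against 280433 to 291487 at day 0. Their part in the changes of Igfbp3, Igf1r, Igfbp5 and Irs1 was not tested.

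Across the 12 group means, the genes most like Igf1 were Col6a1, Col6a2 and Gpx8 (Pearson r of 0.995, 0.994 and 0.993), the first 2 of which encode type VI collagen chains. Igfbp7 was most like Bgn, Lyz2 and Postn (0.992, 0.989 and 0.989), which encode a matrix proteoglycan, a myeloid lysozyme and the matrix protein periostin. Igfbp4 was most like Rnase4, Tmem176b and Ptms (0.983, 0.978 and 0.975). Igfbp3 was most like Ccl2, Inhbb and Ccn1 (0.981, 0.976 and 0.970), a monocyte chemokine, an activin subunit and a matricellular protein. Igf1r was most like Ppan, Noc4l and Srgn (0.971, 0.967 and 0.965), the first 2 of which act in ribosome assembly. For Igfbp5 the list was Sike1, Cd2bp2 and Sparcl1 (0.969, 0.945 and 0.940), for Irs1 Cog4, Ccdc91 and Smim27 (0.956, 0.953 and 0.947), for Igf2 Zfp991, Zfp30 and Myorg (0.952, 0.951 and 0.949), and for Igfbp6 Cd81, Exoc4 and Fcgrt (0.947, 0.942 and 0.938). These correlations describe 12 means that share strain, day and region and are the highest of many genes.

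Around the members, 2 of 11 IGF family relatives passed the filter. Igf2r, the receptor that clears IGF-2, fell in infarct tissue at day 1 in C57 (-0.78 ± 0.23, adjusted p = 0.025) and MRL (-0.71 ± 0.21, adjusted p = 0.023) and rose in C57 infarct tissue at day 5 (0.67 ± 0.23, adjusted p = 0.024). The insulin receptor gene Insr was called in none of the 8 comparisons with day 0. Of 13 genes for proteases that cut binding proteins and for their inhibitors, 8 were tested in infarct tissue. At day 1 there was 1 rise in C57, with 2 rises and 1 fall in MRL infarct tissue. At day 5, 5 rose and 0 fell in each strain. Of all 7608 genes, 9.48% rose and 7.07% fell in C57 infarct tissue at day 1, and 10.1% and 12.4% in MRL. At day 5 the shares were 24.4% and 19.6% in C57, and 24.4% and 24.1% in MRL. Timp1, a metalloproteinase inhibitor, rose by 7.32 in C57 and 8.33 in MRL infarct tissue at day 1 (adjusted p = 1e-07 and 3.9e-09). Adam12, a protease of IGFBP-3 and IGFBP-5, had day 5 rises of 3.08 and 3.46 (adjusted p = 0.0042 and 0.00078). Mmp2, a gelatinase, rose by 2.69 and 2.23 (adjusted p = 0.00033 and 6e-04). Pappa, the protease of IGFBP-4, rose in C57 infarct tissue at day 5 (0.85 ± 0.20, adjusted p = 0.0031) and gave 0.17 in MRL (adjusted p = 0.48). The difference between those changes was -0.68 ± 0.29 (adjusted p = 1). Pappa and Irs2 were picked after their values were seen.

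Of 31 genes below the receptor, 21 were tested in infarct tissue. For C57 there were 7 rises with 6 falls at day 1, then 3 rises with 8 falls at day 5. For MRL the numbers were 4 with 5, then 2 with 9. Beside them, 9.48% of all genes rose and 7.07% fell in C57 at day 1, then 24.4% and 19.6% at day 5. In MRL the shares were 10.1% and 12.4%, then 24.4% and 24.1%. Irs2, the adaptor related to Irs1, had day 1 rises of 2.08 ± 0.47 (C57, adjusted p = 0.0048) and 1.44 ± 0.44 (MRL, adjusted p = 0.024), the opposite direction to Irs1. Ptpn1, a phosphatase that acts on the insulin receptor, rose by 2.14 and 2.25 at day 1 (adjusted p = 0.0018 and 0.00054). Pik3r1, the regulatory subunit of phosphoinositide 3-kinase, fell by 1.83 and 2.41 (adjusted p = 0.035 and 0.0037). Grb14, an inhibitory adaptor, had day 5 changes of -2.43 and -2.41 (adjusted p = 0.0081 and 0.0042).

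In the growth hormone axis, which drives Igf1 in liver, 7 of 8 genes were tested. At day 5, 1 rose and 4 fell in infarct tissue of each strain. Of all genes 24.4% rose and 19.6% fell there in C57, and 24.4% and 24.1% in MRL. For Ghr, the growth hormone receptor, the day 5 changes were -1.30 (C57, adjusted p = 0.0063) and -1.58 (MRL, adjusted p = 0.00068) in infarct tissue. In noninfarct tissue, where Igf1 rose as well, Ghr gave -0.78 and -0.72 without a call (adjusted p = 0.097 and 0.095). The infarct tissue changes of Cish, a feedback inhibitor of that receptor, were -1.78 and -1.62 (adjusted p = 0.022 and 0.021). Socs3, an inhibitor induced by cytokines, rose by 5.15 and 4.74 at day 1 and by 3.07 and 2.74 at day 5 (adjusted p = 2.6e-06, 3e-06, 3e-04 and 0.00029).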

How the data were processed

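Total RNA of 46 samples was hybridised to Affymetrix MOE430A arrays, 1 array per sample. The authors summarised each probe set with GCRMA, per the submitters' processing notes (version not given in the sources used here), and deposited linear intensities, here from 1.03 to 54628. Their log2 was taken without a pseudocount. GCRMA corrects background by base composition, which bears most on low values. A normalization between arrays could hide a shift shared by all genes, and its settings are not given in the sources used here.

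Of 22690 probe sets, 64 controls were left out, 20380 had 1 symbol, 691 several and 1555 none. Probe sets above the array median on at least 3 arrays were tested (12834 infarct, 12344 noninfarct, 13138 between regions) with limma 3.58.1 in R 4.3.3 (lmFit, eBayes). Comparisons within a region used 23 arrays, those between regions all 46. P-values were adjusted by Benjamini-Hochberg over all tested probe sets, with 0.05 as the threshold, and measure the spread between these samples. The fit was tested on simulated data with independent noise for 1 of the 28 comparisons, C57 infarct tissue at day 1 against day 0. Promoter windows came from RefSeq.

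The members and lists were chosen with earlier results of these data known. All members are named. Up to 3 called genes with the largest mean change in infarct tissue are named from each list around the members. These lists are family relatives, binding protein proteases, signalling below the receptor and the growth hormone axis. Insr, Pappa and Irs2 are named outside this rule. Cell marker lists are given by counts, sums or means, with genes named for the atrial list alone. A list of skeletal muscle and blood markers was also counted and is not described here. For likeness the 3 genes with the highest r are named. Alternatives were no filter, quantile normalization, centring, 32 added before log2, another spread model, the mean of probe sets, other arrays in the fit, libraries left out and a replicate block. The block was strain, day and replicate number between regions, and the replicate number alone within a region. Deviations from the group means of same-numbered arrays correlated above 0.1 in every pair between the regions of C57 hearts at day 0 (r of 0.227 to 0.435) and of MRL hearts at day 1 (0.337 to 0.557). The pairs gave 0.071 to 0.551 in MRL hearts at day 0 and -0.462 to 0.154 in C57 hearts at day 1. At day 5, where the block changed calls between regions, they gave -0.007 to 0.768 in C57 and -0.021 to 0.467 in MRL hearts. The labels do not say which samples share a heart.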

Additional observations from a re-analysis of the deposited data

Results flagged for a closer look

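In 4 of 90 sets of 4 arrays (1 member in 1 group), 1 array lay far from the other 3. Chance alone picks out about 1 in 20 such sets. Replicate 1 of MRL infarct tissue at day 1 had Igf1 at 6.81 against 5.48 to 5.68, and the same array had the highest mean fibroblast marker level of all arrays before day 5 (8.60). Replicate 3 of MRL infarct tissue at day 5 had Igfbp4 at 10.34 against 12.27 to 12.48, with mean fibroblast and macrophage marker levels of 9.80 and 6.40 against 10.96 to 11.21 and 9.05 to 9.26. Replicate 2 of MRL noninfarct tissue at day 5 had Igfbp4 at 11.26 against 10.87 to 10.89 and Igfbp3 at 7.71 against 7.08 to 7.13. The part of the markers in these values was not tested.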

How the results depend on the processing

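Of 49 member calls, 33 held under every alternative run, 16 ended under at least 1 and 0 reversed. The day 5 against day 0 calls of Igf1, Igfbp4 and Igfbp7 and the day 1 infarct calls of Igfbp3 were among those that held. Apart from leaving out 1 array, 236 of 252 counts of called members stayed within 1.5 times the main count. Changes within that range are not all listed here, and the other counts moved as follows. MRL infarct day 1 against day 0 went from 2 to 4 with 32 added or without the libraries that stood apart, and MRL infarct day 5 against day 0 from 3 to 5 with all arrays in the fit. MRL against C57 went from 1 to 0 in infarct tissue at day 1 with the mean of probe sets, from 0 to 1 in infarct tissue at day 5 without the libraries that stood apart, from 1 to 0 in noninfarct tissue at day 0 with all arrays, and from 2 to 1 in noninfarct tissue at day 1 without the filter or with all arrays. C57 noninfarct day 1 went from 1 to 0 without the filter, after centring or with the mean of probe sets. Between regions at day 5, C57 went from 0 to 1 without those libraries or with the replicate block, and MRL from 0 to 1 with MRL arrays alone, to 3 without those libraries and to 2 with the replicate block. The cause was not tested. Between regions the block called Igfbp3 in C57 (adjusted p = 0.021) and Igfbp3 and Igfbp7 in MRL hearts (0.0028 and 0.035). Within a region the block was the replicate number alone, shared across strains and days, which does not stand for a heart. That block gave 3 for MRL infarct day 1, and no other count changed under either block. The numbers pair samples only as far as the check of pairs showed.

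Leaving out 1 array in turn gave these ranges. In infarct tissue, C57 had 1 to 5 at day 1, 3 to 5 at day 5 and 5 to 7 from day 1 to day 5, and MRL had 2 to 4, 3 to 4 and 4 to 6. In noninfarct tissue, C57 had 0 to 1, 3 to 6 and 4 to 5, and MRL 0 at day 1, 3 to 4 and 2 to 3. Between strains the range was 0 to 1 in infarct tissue at days 1 and 5, 0 to 1 in noninfarct tissue at day 0 and 1 to 2 at day 1. Between regions it was 2 to 3 in C57 and 1 to 3 in MRL hearts at day 1, and 0 to 1 in each at day 5. The other comparisons kept 0. Quantile normalization moved the median of all genes from 0.03 to -0.11 (C57 infarct, day 5) and from -0.03 to -0.13 (MRL noninfarct, day 5).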

Other observations

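Markers of vessel and lining cells were counted as well. For the 8 smooth muscle and pericyte markers, day 5 infarct tissue had 5 rises with 1 fall in C57 mice, against 6 rises with 0 falls in MRL mice. For the 10 endothelial markers the numbers were 1 rise with 2 falls (C57), against 3 rises with 1 fall (MRL). Of all genes 24.4% rose and 19.6% fell in C57, against 24.4% and 24.1% in MRL. Of the 2 epicardial and mesothelial markers that passed the filter, 1 rose in each strain, and the 1 atrial marker that passed the filter within infarct tissue was called in neither. The day 1 shares of all genes that rose and fell were 9.48% and 7.07% in C57, and 10.1% and 12.4% in MRL infarct tissue. At day 1 the smooth muscle and pericyte list had 0 rises and 2 falls in C57 and 0 calls in MRL infarct tissue. Their part in the members' values was not tested.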
